A study of Mus musculus with 6 samples.

Results

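The proteasome subunit genes were taken from the gene table as all protein-coding genes whose GENCODE M21 symbol begins with Psma, Psmb, Psmc, Psmd, Psme, Psmf or Psmg followed by a number. The rule found 50 of the 54532 genes listed by Ensembl identifier, and 48 of them were among the 12795 genes with enough counts to be tested. Psmb11, the catalytic subunit of the thymus, and Psmc3ip, a meiotic recombination protein which matches the naming rule but is no subunit, had too few counts. The livers came from wild-type male C57BL/6J mice that were 8 weeks old at the start and ate a high-fat diet (HFD) for 4 weeks and then for a further 4 weeks. The HFD group (3 mice, replicates 1 to 3) received the diet only, and the HFD+Allantoin-H group (3 mice, replicates 4 to 6) also received allantoin, a product of purine breakdown, in the drinking water over the further 4 weeks. The concentration was 0.3 mg/mL in the study's methods, whereas the sample labels name 0.06 and 0.3 mg/mL without assigning one to each library. The comparison asks how the liver transcripts of mice on the same diet differ with allantoin, and p-values measure the spread between these mice, 1 library each.

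The proteasome degrades proteins that carry ubiquitin chains. Its core is a barrel of alpha rings, which gate the entry, and beta rings, which hold the proteolytic sites, and its regulatory cap combines a ring of ATPases that unfold the substrate with non-ATPase subunits that bind and remove ubiquitin. Interferon replaces the constitutive catalytic beta subunits Psmb5, Psmb6 and Psmb7 with the immunoproteasome subunits Psmb8, Psmb9 and Psmb10, and other activators can dock on the core in place of the cap.

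Proteasome transcripts did not move together between the groups. By edgeR's quasi-likelihood test at an adjusted p under 0.05, 8 of the 48 tested genes were higher and 12 were lower in HFD+Allantoin-H livers, where 11.3% of all genes tested were called higher and 13.0% lower. Together the 20 called genes were 41.7% of the tested members, against 24.3% of all genes. In 32 of the 48 genes the HFD and allantoin libraries had no overlap in value (66.7%, against 44.3% of all genes). The log2 fold changes (HFD+Allantoin-H over HFD) ran from -1.08 to 1.31 with a median of -0.16, beside a median of -0.03 over all genes tested. Genes grouped with the non-ATPase cap, among them the assembly chaperones Psmd5 and Psmd9, and the long activator Psme4 made up most of the higher genes. The constitutive beta subunits Psmb3, Psmb5 and Psmb6, the immunoproteasome subunit Psmb8 and the activators Psme1 and Psme2 were lower. Of the 12 lower genes, Psme1 alone kept its call when library size alone was used for scaling. With the libraries' trends in transcript length and GC content removed, 3 of the 12 kept it, among them Psme1.

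Depth ran from 11326372 to 14601457 counts per library, and values are CPM, counts scaled to a common library size after correction with TMM factors, which were 0.756 to 0.951 in HFD and 1.12 to 1.19 in HFD+Allantoin-H libraries. Hepatocyte markers were abundant in every library, with a summed level of 97682 to 101054 CPM in HFD and 76304 to 104014 CPM in HFD+Allantoin-H. Each HFD library stood apart in some transcripts. In HFD replicate 1, mitochondrial transcripts took 36.4% of the counts, against 20.1% and 17.9% in the other HFD libraries and 6.9% to 11.3% with allantoin. HFD replicate 2 held fat cell transcripts, with Adipoq at 51.4 CPM against 0 in the other HFD libraries. HFD replicate 3 had the highest HFD values of Syvn1 (461 CPM against 241 and 82.0) and Nfe2l2 (152 against 59.6 and 38.2). It had the lowest of Hba-a1 (156 CPM against 672 and 549). In these whole-tissue samples, fewer cells of a type and less RNA per cell cannot be told apart.

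**Figure D1:**
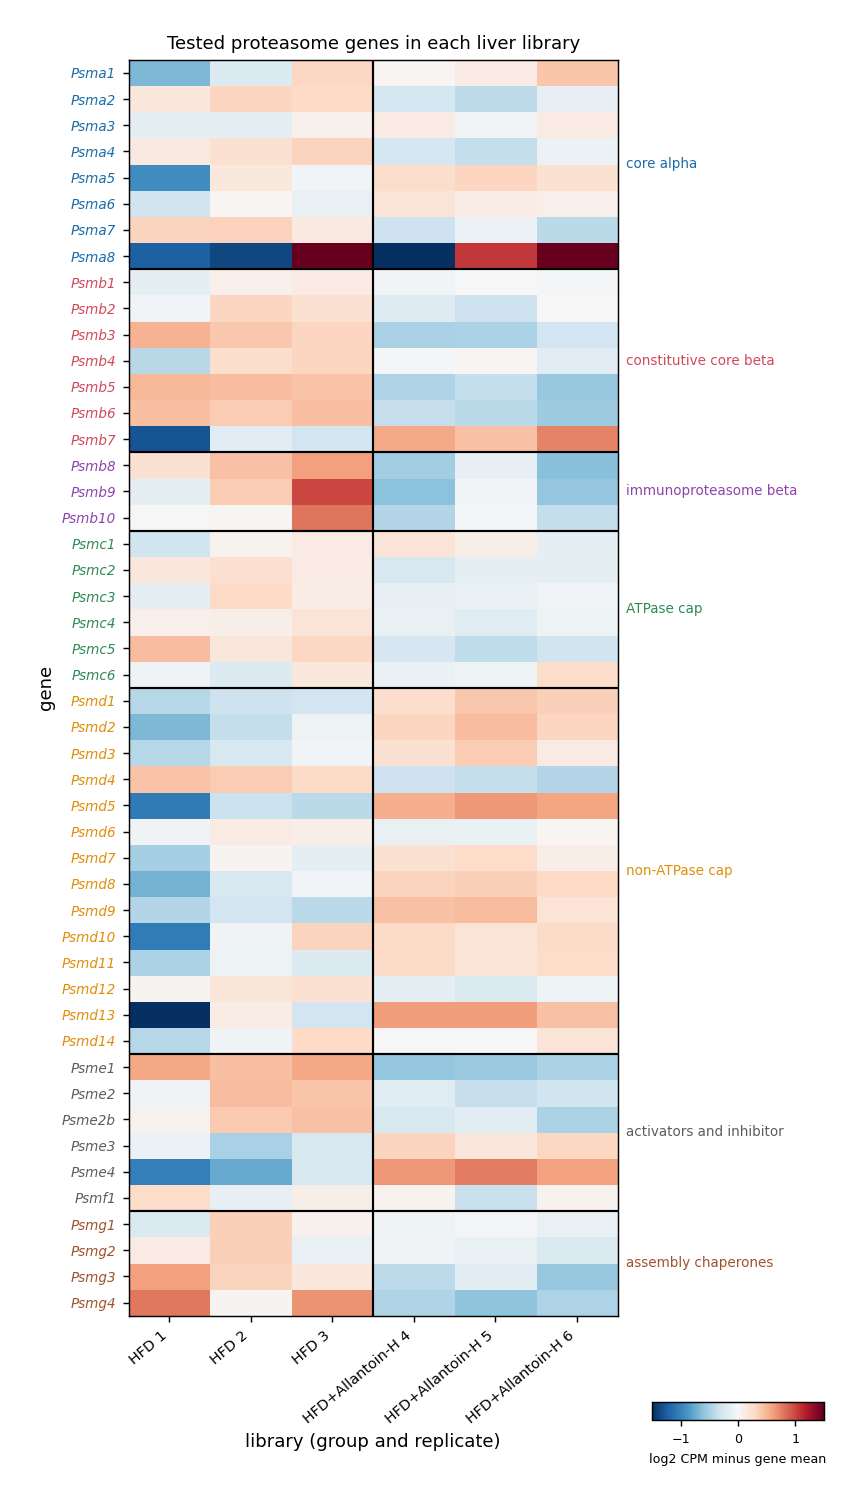
Heat map of the 48 tested proteasome genes (rows, ordered by subunit group) in the 6 liver libraries (columns). Colour gives the log2 CPM of a library minus the mean of that gene over all libraries. HFD replicate 1 is the lowest HFD library for 32 of the 48 genes, and Psma8, at under 2 CPM in each library, runs past the ends of the colour scale.

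HFD replicate 1 had the lowest value of the 3 HFD libraries in 32 of the 48 genes (66.7%), whereas it was lowest in 36.2% of all genes tested. The median coefficient of variation over the proteasome genes was 13.9% among HFD libraries and 6.35% among HFD+Allantoin-H libraries, and over all genes it was 24.4% and 14.0%. Of the 20 called genes, 17, 13 and 16 kept their call without HFD replicate 1, 2 and 3, and 8, 6 and 9 kept it without HFD+Allantoin-H replicate 4, 5 and 6. The 5 genes that kept it in every such fit were Psmb5, Psmb6, Psmd5, Psme1 and Psme4, and all 20 genes kept their direction in every alternative in which they were fitted.

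The stretches below are the 250 bases before the RefSeq gene start (GRCm38.p6), 5′ to 3′ on the gene's strand, of the 3 called genes with the smallest p in each direction that had a promoter entry. In 5 of these 6 genes the RefSeq start lies inside the GENCODE gene. The stretches are shown so that the genes that fell and the genes that rose can be read side by side. Capitals mark the letters TGACNNNGC (antioxidant response element), CCAAT (NF-Y box), GAAA and GAAA with any 2 letters between them (interferon-stimulated response element), TTCNNNGAA (gamma-activated site) or CCGGAAG (ETS site) on either strand. The first 3 belong to genes that were lower with allantoin, Psme1 (chr14:55578244-55578493, + strand), Psmb5 (chr14:54617996-54618245, - strand) and Psmb6 (chr11:70525107-70525356, + strand). The last 3 belong to genes that were higher, Psme4 (chr11:30771525-30771774, + strand), Psmd5 (chr2:34870963-34871212, - strand) and Psmd9 (chr5:123227940-123228189, + strand).
Psme1: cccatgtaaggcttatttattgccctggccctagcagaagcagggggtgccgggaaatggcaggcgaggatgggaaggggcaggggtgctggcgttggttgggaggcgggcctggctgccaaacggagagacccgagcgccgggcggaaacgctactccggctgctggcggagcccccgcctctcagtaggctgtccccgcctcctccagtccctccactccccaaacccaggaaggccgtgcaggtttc
Psmb5: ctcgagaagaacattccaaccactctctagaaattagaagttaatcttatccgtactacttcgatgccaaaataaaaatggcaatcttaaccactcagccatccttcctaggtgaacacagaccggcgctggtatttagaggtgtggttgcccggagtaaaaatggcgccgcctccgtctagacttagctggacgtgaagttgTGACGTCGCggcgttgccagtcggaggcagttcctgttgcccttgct
Psmb6: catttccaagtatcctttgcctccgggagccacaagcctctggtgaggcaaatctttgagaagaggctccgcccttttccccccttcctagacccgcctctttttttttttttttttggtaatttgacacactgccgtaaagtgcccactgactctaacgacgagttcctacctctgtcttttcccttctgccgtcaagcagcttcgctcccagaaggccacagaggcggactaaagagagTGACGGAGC
Psme4: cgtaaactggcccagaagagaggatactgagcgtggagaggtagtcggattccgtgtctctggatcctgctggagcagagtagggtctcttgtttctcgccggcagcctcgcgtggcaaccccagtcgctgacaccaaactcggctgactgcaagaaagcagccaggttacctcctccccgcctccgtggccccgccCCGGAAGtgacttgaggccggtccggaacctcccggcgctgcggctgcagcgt
Psmd5: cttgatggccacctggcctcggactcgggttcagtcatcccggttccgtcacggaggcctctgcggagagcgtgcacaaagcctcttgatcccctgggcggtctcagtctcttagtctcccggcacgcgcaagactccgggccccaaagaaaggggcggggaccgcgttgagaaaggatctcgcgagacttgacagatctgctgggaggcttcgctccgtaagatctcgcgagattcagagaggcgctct
Psmd9: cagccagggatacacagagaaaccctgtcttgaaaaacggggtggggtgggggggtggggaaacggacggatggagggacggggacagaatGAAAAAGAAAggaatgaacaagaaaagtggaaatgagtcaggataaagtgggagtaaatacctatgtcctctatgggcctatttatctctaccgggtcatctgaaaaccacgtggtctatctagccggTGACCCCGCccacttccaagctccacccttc
Among the stretches shown, Psmb5 carried the antioxidant response element letters as TGACGTCGC, beginning 47 bases before the start, and Psmb6 carried them as TGACGGAGC, ending on the last base before it. Psmd9 carried them as TGACCCCGC and also held GAAAAAGAAA. Psme4 held CCGGAAG, and its antioxidant response element match GCAGCGTCA crossed the gene start, so that it is not in capitals. The stretches of Psme1 and Psmd5 held none of these letters before the start, and Psme1 had the interferon-stimulated response element letters as TTTCGCTTTC just past it.

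Promoter windows of 300 bases (250 before and 50 after the start) were listed for 42 of the 50 genes, in 45 windows. The antioxidant response element letters were in 13.3% of these windows and in 12.4% of all 32851 windows. CCAAT was in 33.3% against 37.4%, and TTCNNNGAA in 6.67% against 8.30%. The interferon-stimulated response element letters were in 11.1% against 3.44%, in the genes Psmb3, Psmd4, Psme1 and Psmg4, which were lower, and Psmd9, which was higher. They were in 30.8% of the 13 windows of genes called lower, 14.3% of the 7 called higher and 0.00% of the 25 others. The windows of the interferon-inducible genes Psmb8, Psmb9, Psmb10 and Psme2 held no match to these letters. CCGGAAG was in 35.6% against 8.86%, in 15 genes, including the untested Psmc3ip, of which 3 were called higher and 1 lower. It was in 42.9% of the windows of genes called higher, 7.69% of those called lower and 48.0% of the other members. A match describes letters only, and these shares were not tested.

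Core alpha subunits form the outer rings of the core. Of the 8 tested genes, 2 were called lower and none higher, and the median log2 fold change was 0.19. For this and the following subunit groups, the shares over all genes tested were 11.3% called higher and 13.0% called lower. Psma2 was at 85.9, 96.4 and 94.6 CPM in HFD livers and at 64.2, 58.7 and 70.6 CPM with allantoin, a log2 fold change of -0.52 ± 0.15 (SE, adjusted p = 0.0396). Psma7 was at 150, 151 and 131 CPM in HFD and at 95.8, 112 and 90.4 CPM with allantoin (-0.53 ± 0.16, adjusted p = 0.0413). All 3 allantoin values of both genes lay below all HFD values. These calls were among the weakest, since both were lost when library size alone was used for scaling, with log2 fold changes of -0.11 for each. They were also lost without HFD replicate 2 and without any of the allantoin libraries, as well as without HFD replicate 3 (Psma2) or 1 (Psma7), at log2 fold changes of -0.58 to -0.45 and -0.62 to -0.47.

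Psma8, the alpha subunit of the testis, was barely present, at 0.218, 0.198 and 1.50 CPM in HFD and at 0.147, 1.06 and 1.75 CPM with allantoin. Its log2 fold change of 0.57 ± 0.93 was the largest of the uncalled alpha genes, with overlapping groups (adjusted p = 0.691). Psma5 was at 27.4, 58.4 and 51.0 CPM in HFD and at 62.9, 65.4 and 61.6 CPM with allantoin (0.47 ± 0.26, adjusted p = 0.204), the HFD spread coming from replicate 1. The remaining alpha genes Psma1, Psma3, Psma4 and Psma6 had log2 fold changes of -0.46 to 0.33. Psma3 shares 665 identical bases with the gene Gm13835, which drew 2864 counts against 5720 for Psma3, so that the counts of this gene are uncertain. With the counts of near-identical copies added, its log2 fold change was 0.18 in place of 0.14.

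Constitutive beta subunits line the inner rings, where Psmb5, Psmb6 and Psmb7 carry the proteolytic sites. Of the 7 tested genes, 3 were called lower and 1 was called higher, and the median log2 fold change was -0.34 (0.06 when library size alone was used). Psmb5, with the chymotrypsin-like activity, was at 120, 117 and 114 CPM in HFD and at 61.7, 66.4 and 57.5 CPM with allantoin. Its log2 fold change was -0.92 ± 0.15 (adjusted p = 0.00496). Psmb6, with the caspase-like activity, was at 170, 163 and 170 CPM in HFD and at 97.9, 94.3 and 86.5 CPM with allantoin (-0.85 ± 0.15, adjusted p = 0.00598). The HFD libraries lay close together for both genes, although they stood apart in other transcripts, and every allantoin value was lower. Psmb3, a structural beta subunit, fell from 132 ± 8.88 to 74.5 ± 5.61 CPM (mean ± SD, n = 3 each), a log2 fold change of -0.83 (adjusted p = 0.00742), and without HFD+Allantoin-H replicate 5 it no longer passed (range without single libraries -0.89 to -0.78).

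Psmb7, with the trypsin-like activity, went the other way. It was at 20.6, 44.8 and 41.4 CPM in HFD and at 74.6, 68.3 and 84.2 CPM with allantoin, a log2 fold change of 1.09 ± 0.27 (adjusted p = 0.0216). HFD replicate 1 was the lowest, and the log2 fold change ranged from 0.81 to 1.28 when single libraries were left out. The call was kept without any one HFD library and lost without each of the allantoin libraries in turn. Psmb7 shares 405 exon bases with Nek6, a kinase gene on the opposite strand that was lower with allantoin (-0.92, adjusted p = 0.0106), and the strand setting of the counting is not given in the sources used here. The ratio of Psmb5 to Psmb7, in CPM per kilobase of transcript, was 7.53, 3.35 and 3.55 in HFD and 1.07, 1.25 and 0.882 with allantoin, without overlap. The ratio of Psmb5 to Psmb6 was 0.628, 0.636 and 0.595 against 0.559, 0.625 and 0.590, with overlapping groups. Psmb2, the uncalled gene of this group with the largest change, was at 47.3, 60.9 and 57 CPM in HFD and at 42.7, 39.5 and 48.7 CPM with allantoin (-0.34 ± 0.17, adjusted p = 0.172), and Psmb1 and Psmb4 were at -0.05 and -0.15.

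**Figure D2:**
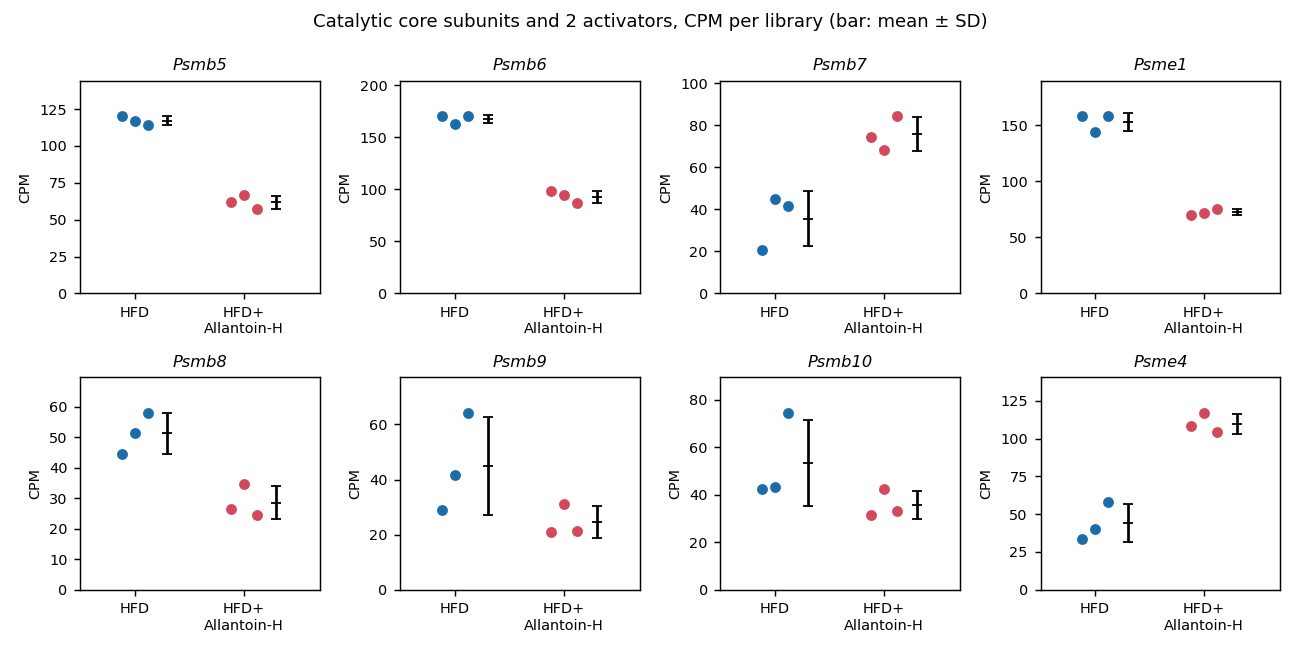
Catalytic subunits of the constitutive core (Psmb5, Psmb6, Psmb7) and of the immunoproteasome (Psmb8, Psmb9, Psmb10), with the activators Psme1 and Psme4, in CPM from 0 on the vertical axis. Each point is 1 library, with HFD in blue and HFD+Allantoin-H in red, and bars show the mean ± SD of 3 libraries. Psmb5, Psmb6, Psmb8, Psme1 and, by a narrow margin, Psmb10 are lower in all 3 allantoin libraries, whereas Psmb7 and Psme4 are higher.

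Immunoproteasome subunits were lower in all 3 genes, and 1 of them passed the test. Psmb8 was at 44.4, 51.3 and 58.0 CPM in HFD and at 26.4, 34.8 and 24.6 CPM with allantoin, without overlap (-0.84 ± 0.19, adjusted p = 0.0148). Without HFD+Allantoin-H replicate 4 or 6 it no longer passed, with a range of -1.00 to -0.74 without single libraries. Psmb9 was at 28.9, 41.7 and 64.2 CPM in HFD and at 21, 31.1 and 21.5 CPM with allantoin. The groups overlapped, HFD replicate 3 was the highest, and the log2 fold change of -0.87 ± 0.29 did not pass (adjusted p = 0.0570), although it did without HFD replicate 1 (-1.11). Psmb10 was at 42.4, 43.2 and 74.4 CPM in HFD and at 31.4, 42.2 and 33.3 CPM with allantoin (-0.58 ± 0.25, adjusted p = 0.114), again with its highest value in HFD replicate 3. The groups of Psmb10 did not overlap, by a narrow margin. Psmb8 (chr17:34197721-34201454) and Psmb9 (chr17:34181987-34187764) lie side by side and share exon bases with antisense or neighbouring transcripts of the antigen presentation locus, 498 with Gm20496 and 212 with Tap1.

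Relative to their constitutive counterparts, Psmb8 and Psmb9 had overlapping values in the groups, whereas Psmb10 did not. The ratio of Psmb8 to Psmb5 per kilobase was 0.204, 0.243 and 0.281 in HFD and 0.236, 0.289 and 0.237 with allantoin, a log2 difference of 0.07 (-0.05 to 0.18 without single libraries). Psmb9 to Psmb6 was 0.1, 0.151 and 0.223 against 0.126, 0.194 and 0.147, a log2 difference of 0.03 that was -0.26 without HFD replicate 1 and 0.32 without HFD replicate 3. Psmb10 to Psmb7 was 1.82, 0.852 and 1.59 against 0.372, 0.546 and 0.350, a log2 difference of -1.70, in which Psmb7 was called higher and Psmb10 did not pass the test. Interferon response and antigen presentation genes, which share regulation with the immunoproteasome, had 20 tested members. None was called higher and 3 (Stat2, Nlrc5 and B2m) were called lower, where 11.3% and 13.0% of all genes tested were. With library size alone, 1 member was called higher and 2 lower, where 24.7% and 5.27% of all genes were. The summed level of the list was 5793 to 7163 CPM in HFD and 3640 to 4906 CPM with allantoin. Of these sums, B2m made up 3226 to 3446 CPM and 1535 to 2422 CPM. B2m did not pass without the trend in length and GC content (adjusted p = 0.0947) or with library size alone (adjusted p = 0.275), while Stat2 and Nlrc5 passed under both. Macrophage markers, from cells that are rich in immunoproteasome, had a summed level of 175 to 400 CPM in HFD and 463 to 569 CPM with allantoin, with 3 of 10 called higher (5 with library size alone), and lymphocyte markers had 13.5 to 20.6 CPM and 18.7 to 20.2 CPM with none of 4 called. The part of these cells and genes in the values of Psmb8 was not tested. Psmb11 had 0 counts in all libraries but HFD+Allantoin-H replicate 6, where it reached 0.202 CPM.

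ATPase subunits form the base ring of the cap, which unfolds the substrate. Of 6 genes, 1 was called lower and none higher, with a median log2 fold change of -0.21, which was 0.19 with library size alone and 0.01 after the trends of the libraries in length and GC content were removed. Psmc5 was at 89.8, 72.8 and 80.6 CPM in HFD and at 54.5, 49.7 and 52.6 CPM with allantoin (-0.63 ± 0.15, adjusted p = 0.0197), without overlap. The call was lost without any of the allantoin libraries (range without single libraries -0.70 to -0.56). Psmc2 was at 87.2, 92.2 and 85.0 CPM in HFD and at 65.6, 70.2 and 70.3 CPM with allantoin. Its groups did not overlap either, but its log2 fold change of -0.36 ± 0.14 did not pass (adjusted p = 0.0986). The other 4 ATPases had log2 fold changes of -0.24 to 0.08.

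The non-ATPase cap group had the highest median of the subunit groups. It holds all Psmd genes, including Psmd5 and Psmd9, which encode assembly chaperones and were both called higher. Psmd10, also a gene for an assembly chaperone, was not called (0.40, adjusted p = 0.39), and its groups overlapped. Of 14 genes, 11 had a positive log2 fold change, 5 were called higher and 1 was called lower, where 11.3% and 13.0% of all genes tested were. The median was 0.49, which became 0.54 without the trend in length and GC content and 0.89 with library size alone. Sem1, a small cap subunit outside the naming rule, was called lower (-1.00, adjusted p = 0.00549). Psmd5, a chaperone of cap assembly, was at 10.9, 18.1 and 17.2 CPM in HFD and at 33.0, 35.7 and 34.1 CPM with allantoin. Every allantoin value was above every HFD value, and the log2 fold change was 1.15 ± 0.21 (adjusted p = 0.00694). Psmd9, another assembly chaperone, was at 17.6, 19.7 and 18.1 CPM in HFD and at 32.6, 33.4 and 27.7 CPM with allantoin (0.76 ± 0.16, adjusted p = 0.0111), and without HFD+Allantoin-H replicate 4 or 5 it no longer passed (range 0.71 to 0.84). Psmd9 shares 1849 exon bases with the long noncoding RNA Gm26745 on the opposite strand, so that reads of the pair cannot be told apart without strand.

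The large scaffold subunits also rose. Psmd1 went from 45.8 ± 2.40 to 73.6 ± 3.57 CPM (mean ± SD, n = 3 each), a log2 fold change of 0.68 (adjusted p = 0.0120 in edgeR's quasi-likelihood test). Psmd2 went from 95.5 ± 19.0 to 157 ± 8.93 CPM (log2 fold change 0.72, adjusted p = 0.0230), and the lid subunit Psmd8 from 63.9 ± 14.5 to 99.1 ± 1.89 CPM (log2 fold change 0.63, adjusted p = 0.0423). Psmd1 lost its call without HFD+Allantoin-H replicate 5 (range without single libraries 0.64 to 0.73). Both Psmd2 (0.58 to 0.87) and Psmd8 (0.46 to 0.79) lost their call without HFD replicate 2 and without each allantoin library in turn, and Psmd8 also lost it without HFD replicate 1.

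Psmd4, a ubiquitin receptor of the cap, was the member of this group that was called lower. It was at 164, 159 and 149 CPM in HFD and at 98.3, 95.2 and 89.5 CPM with allantoin, a log2 fold change of -0.74 ± 0.15 (adjusted p = 0.00946) that lost its call without HFD+Allantoin-H replicate 5 (range -0.77 to -0.70). Psmd14, the deubiquitinase that cleaves chains from the substrate, was at 32.3, 41.6 and 53.2 CPM in HFD and at 43.0, 43.2 and 49.7 CPM with allantoin. Its groups overlapped, and its log2 fold change was 0.10 ± 0.20 (adjusted p = 0.761). Psmd13 was at 15.4, 47.2 and 35.9 CPM in HFD and at 67.4, 67.9 and 59.3 CPM with allantoin, a log2 fold change of 0.98 ± 0.34 that did not pass (adjusted p = 0.0628). HFD replicate 1 was far below the other HFD libraries, and the log2 fold change passed the threshold without HFD replicate 1 (0.64) and without HFD replicate 2 (1.33). Psmd13 shares 342 exon bases with Sirt3 on the opposite strand. The remaining genes Psmd3, Psmd6, Psmd7, Psmd10, Psmd11 and Psmd12 had log2 fold changes of -0.30 to 0.49.

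**Figure D3:**
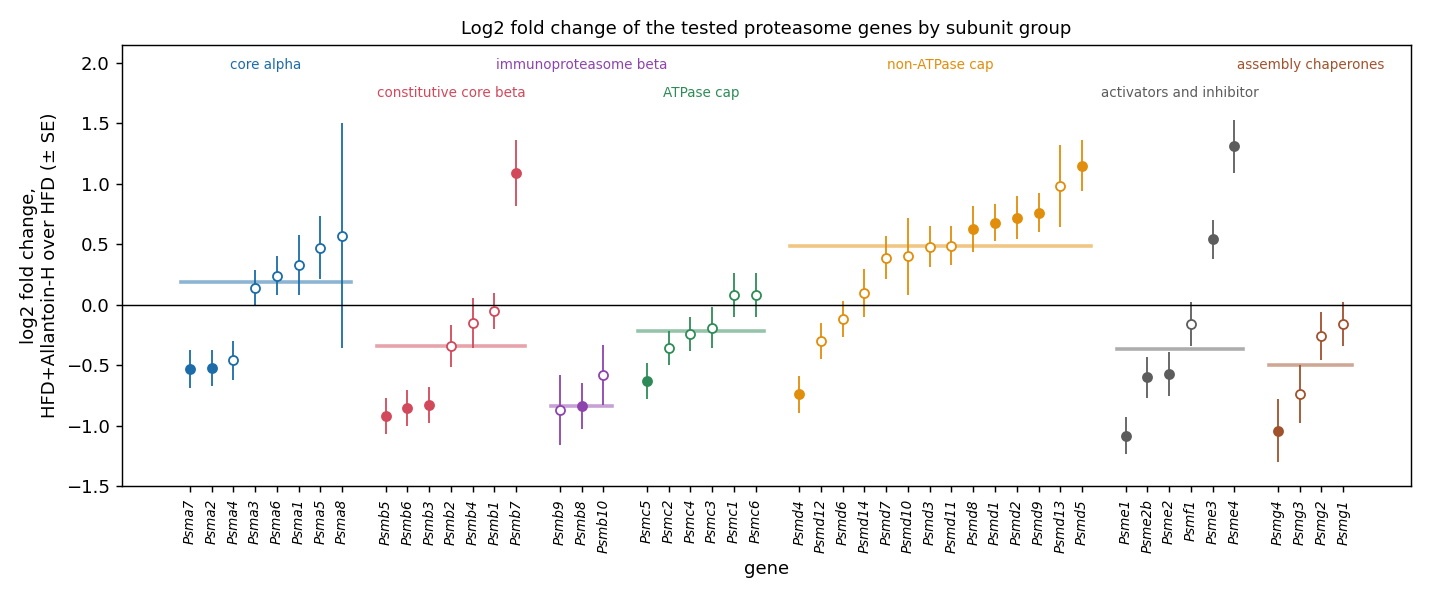
Log2 fold change (HFD+Allantoin-H over HFD) ± SE of each tested proteasome gene, with genes ordered by value within their subunit group. Filled points passed an adjusted p under 0.05 and open points did not, and horizontal lines are group medians. The non-ATPase cap has its median at 0.49 and the immunoproteasome at -0.84, and Psmb7 and Psme4 stand above the other genes of their groups.

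Alternative activators moved in opposite directions. Of 6 genes, 2 were called higher and 3 lower. Psme1, a subunit of the interferon-inducible activator, was at 158, 144 and 158 CPM in HFD and at 70.3, 71.6 and 75.5 CPM with allantoin. The log2 fold change of -1.08 ± 0.15 was the lowest of all 48 genes (adjusted p = 0.00352), and among the 12 lower genes it alone kept its call with library size alone (-0.67, adjusted p = 0.0283). Its partner Psme2, a neighbour on chromosome 14 (Psme1 at chr14:55578123-55581529, Psme2 at chr14:55587441-55591113), was at 45.5, 65.2 and 63.0 CPM in HFD and at 41.7, 37.1 and 38.4 CPM with allantoin (-0.57 ± 0.18, adjusted p = 0.0481). Psme2b, a retrotransposed copy of Psme2, was at 24.8, 31.2 and 32.4 CPM against 20.1, 21.1 and 17.2 CPM (-0.60 ± 0.17, adjusted p = 0.0363). Since the copy and its parent are 99.4% identical over 794 bases, the split of reads between Psme2 and Psme2b is uncertain. Both lost their call without HFD replicate 2 or 3 and without any of the allantoin libraries (ranges -0.72 to -0.47 and -0.71 to -0.52).

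Psme4, the nuclear activator that caps the core without ATPases, was at 33.6, 40.5 and 58.2 CPM in HFD and at 108, 117 and 104 CPM with allantoin. Its log2 fold change of 1.31 ± 0.22 was the highest of the 48 genes (adjusted p = 0.00512), and it kept its call without any single library. The ratio of Psme1 to Psme4 per kilobase was 27.4, 20.7 and 15.9 in HFD and 3.81, 3.56 and 4.23 with allantoin, without overlap. Psme3, a nuclear activator of the same family as Psme1, was at 32, 24.3 and 28.7 CPM in HFD and at 43.0, 38.3 and 42.3 CPM with allantoin (0.54 ± 0.16, adjusted p = 0.0414), a call lost without HFD replicate 2 or 3 or any allantoin library (range 0.44 to 0.63). The inhibitor Psmf1 was at 36.0, 27.2 and 31.6 CPM in HFD and at 30.8, 23.5 and 30.7 CPM with allantoin (-0.16 ± 0.18, adjusted p = 0.562), with overlapping groups.

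Assembly chaperones of the core had 4 tested genes, all with a negative log2 fold change under TMM factors, and 1 was called lower. Their median of -0.50 was -0.07 with library size alone and -0.13 without the trend in length and GC content. None was called under either. Psmg4 was at 11.8, 7.01 and 10.9 CPM in HFD and at 4.99, 4.50 and 4.93 CPM with allantoin (-1.04 ± 0.26, adjusted p = 0.0226), a call lost without HFD replicate 1 or any allantoin library (range -1.24 to -0.90). Psmg4 also lost its call with library size alone (-0.62, adjusted p = 0.106) and without the length and GC trend (-0.40, adjusted p = 0.317). Its partner Psmg3 was at 10.9, 8.99 and 7.94 CPM in HFD and at 5.42, 6.39 and 4.79 CPM with allantoin, without overlap (-0.74 ± 0.24, adjusted p = 0.0546), and it passed without HFD replicate 3 (-0.84). The other chaperone pair, Psmg1 and Psmg2, had log2 fold changes of -0.16 and -0.26, which were 0.24 and 0.16 with library size alone.

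Levels between genes were compared as CPM per kilobase of the principal transcript, and the order depends on that choice of length. For Psmb6 the principal transcript has 798 nt and the exon union 1872 nt, whereas for Psmb5 both have 899 nt. In HFD livers Psmb6 was highest at 210 ± 5.34 (SD, n = 3), before Psmb3 at 173 ± 11.6 and Psma7 at 157 ± 12.4. Psma4, Psmb5 and Psmb4 followed Psme1 at 131 ± 8.75, 130 ± 3.66 and 128 ± 32.9 and did not differ beyond their spread. With allantoin Psmb6 was still highest at 116 ± 7.31, with Psmb4 at 115 ± 7.73 and Psma7 at 109 ± 12.2 within its spread. Psme1 went from rank 4 to rank 13 and Psmb7 from rank 30 to rank 12. In HFD livers the lowest tested genes were Psma8, Psmd5, Psmd10 and Psme4, at 0.378, 3.50, 5.41 and 6.79, and with allantoin Psme4 was at 16.9. The summed level of all members per kilobase was 2356, 2622 and 2698 in HFD and 2126, 2153 and 2142 with allantoin, whereas that of the non-ATPase cap was 392, 463 and 472 against 487, 496 and 481.

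Transcript length ran with direction among the proteasome genes. All 9 genes with a principal transcript under 1000 nt had a negative log2 fold change, and 7 were called lower (77.8%). Over all genes of that length the share called lower was 33.8% and the median was -0.58. Of the 12 genes of 2000 nt and over, 10 had a positive log2 fold change and 6 were called higher (50%, against 13.7% of all genes of that length), with Psma2 called lower. Spearman's rho between length and log2 fold change was 0.63 over the 48 proteasome genes and 0.24 over 12787 genes, as descriptions across genes of the same 6 libraries. Among the 27 genes of 1000 to under 2000 nt, Psmb7 (1160 nt) and Psmd8 (1540 nt) were called higher and 4 genes were called lower, which is 7.41% and 14.8%, close to the 6.84% and 17.1% of all genes of that length. Without the trends of the libraries in length and GC content, rho was 0.41 over the proteasome genes and 0.01 over all genes.

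**Figure D4:**
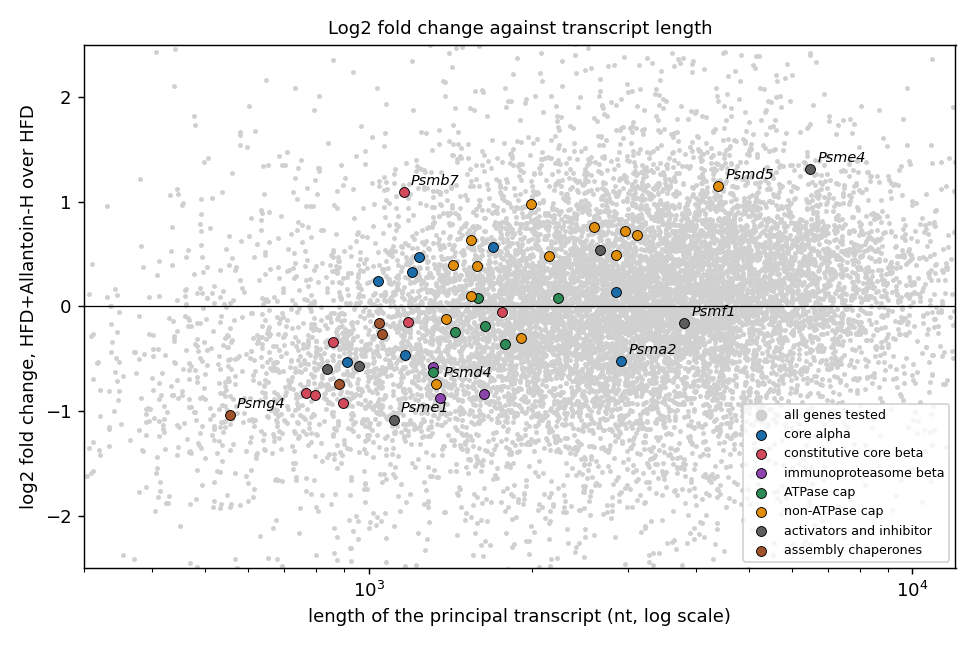
Log2 fold change against the length of the principal transcript (nt, log scale), with all genes tested in grey and proteasome genes coloured by subunit group. The axes leave out 348 grey points. All proteasome genes under 1000 nt lie below 0, and Psmd5 and Psme4 are long and high.

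With that trend removed, 10 of the 48 genes were called higher and 3 lower, where 11.7% and 10.4% of all genes were. Of the 12 genes called lower, Psma2, Psmd4 and Psme1 kept their call, and Psmb5 was at -0.40 (adjusted p = 0.0695), Psmb6 at -0.32 (adjusted p = 0.127) and Psmb8 at -0.59 (adjusted p = 0.0599). Of the 8 genes called higher, 7 kept it, with Psmb7 at 1.32 (adjusted p = 0.00907) and Psme4 at 1.08 (adjusted p = 0.00848), and Psme3 did not (0.49, adjusted p = 0.0510). The genes that were added to the higher calls were Psma6, Psmd3 and Psmd13.

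The scaling of the libraries set the balance of directions. With library size alone, 13 proteasome genes were called higher, where 24.7% of all genes were, and 1 was called lower, where 5.27% were, and the median of all genes tested moved by 0.41 on the log2 scale. Relative to the median of all genes, the proteasome median was -0.13 under both scalings, the non-ATPase cap was at 0.51 and 0.50 and the immunoproteasome at -0.81 and -0.82. This closeness follows from the subtraction, since these scalings differ by a factor per library that shifts all genes nearly alike. With the trend in length and GC content removed, the same values were 0.02, 0.54 and -0.58.

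**Figure D5:**
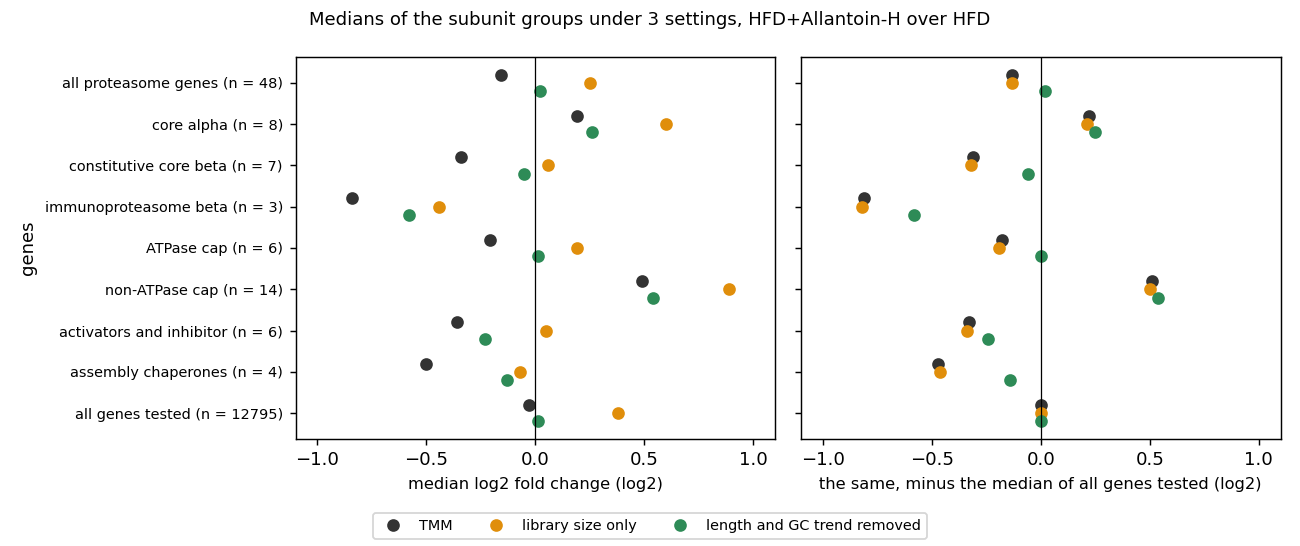
Median log2 fold change of each subunit group (left) and the same minus the median of all genes tested (right), under TMM factors, library size alone, and TMM with each library's length and GC trend removed. The left medians shift with the scaling, from -0.16 to 0.25 for all 48 proteasome genes, whereas on the right TMM and library size alone nearly coincide. The closeness on the right follows from the subtraction, since these scalings shift all genes nearly alike.

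Other genes of the ubiquitin-proteasome pathway also moved both ways. Among 11 tested genes for proteasome-associated and assembly factors, 1 was called higher and 2 lower, where 11.3% and 13.0% of all genes tested were. With library size alone 3 were called higher and none lower, where 24.7% and 5.27% of all genes were. Ube3c, a ubiquitin ligase that binds the proteasome, was at 13.3, 16.2 and 16.0 CPM in HFD and at 41.4, 41.4 and 46.3 CPM with allantoin (log2 fold change 1.50 ± 0.16, adjusted p = 0.00197). Sem1, a small cap subunit, was at 60.7, 64.9 and 60.0 CPM in HFD and at 31.1, 25.9 and 35.9 CPM with allantoin (-1.00 ± 0.17, adjusted p = 0.00549). Akirin2, which carries proteasomes into the nucleus, was at -0.76 (adjusted p = 0.0418), and the core assembly factor Pomp was at -0.23 (adjusted p = 0.372).

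Nfe2l1, which encodes the factor that drives proteasome transcription when proteolysis is impaired, was at 99.8, 113 and 104 CPM in HFD and at 109, 121 and 107 CPM with allantoin. Its groups overlapped (0.09 ± 0.15, adjusted p = 0.698). Of the 9 tested genes of its pathway, Vcp (0.60, adjusted p = 0.0332) and Ngly1 (0.62, adjusted p = 0.0303) were higher and Syvn1 was lower (-1.80 ± 0.50, adjusted p = 0.0307), with Syvn1 at 241, 82.0 and 461 CPM in HFD against 68.0, 89.0 and 67.6 CPM, so that its groups overlapped. Without the trend in length and GC content Vcp (adjusted p = 0.0544) and Ngly1 (adjusted p = 0.0560) did not pass. With library size alone 3 genes were called higher and Syvn1 did not pass (adjusted p = 0.0606). Of all genes tested, 11.3% were called higher and 13.0% lower with TMM factors, and 24.7% and 5.27% with library size alone. Nfe2l2, the antioxidant response factor of the same family, was at 59.6, 38.2 and 152 CPM in HFD and at 45.2, 47.0 and 62.0 CPM with allantoin (-0.70 ± 0.43, adjusted p = 0.266).

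Of 15 tested ubiquitin and shuttle genes, 4 were called higher and 3 lower, where 11.3% and 13.0% of all genes tested were. With library size alone 6 were called higher and 1 lower, where 24.7% and 5.27% of all genes were. Nploc4, a cofactor of Vcp, was at 32.6, 32.7 and 33.1 CPM in HFD and at 75.8, 82.8 and 69.0 CPM with allantoin (1.21 ± 0.15, adjusted p = 0.00296). Ubxn1, another Vcp cofactor, was at 181, 215 and 186 CPM in HFD and at 101, 82.2 and 79.4 CPM with allantoin (-1.15 ± 0.17, adjusted p = 0.00396). The polyubiquitin gene Ubb was at 635, 683 and 850 CPM in HFD and at 435, 381 and 397 CPM with allantoin, without overlap (-0.84 ± 0.18, adjusted p = 0.0112), and with library size alone it did not pass (-0.44, adjusted p = 0.197).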

How the data were processed

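Liver RNA was sequenced from 3 HFD and 3 HFD+Allantoin-H mice on an Illumina instrument, and the authors deposited raw read counts for each gene, as whole numbers from filtered reads. The builds GRCm38 and mm10 are named in the submitters' processing notes, and the aligner, the counting tool and its strand setting are not given in the sources used here. Totals were 11326372 to 14601457 counts per library, and precision rests on the spread between mice. No sample column was left unused (0), and features without an Ensembl identifier (0.197% to 0.306% of the counts) were left out.

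Symbols, positions and principal transcript lengths came from GENCODE M21, in which 54409 of 54532 identifiers had an entry. Counts were filtered with filterByExpr, scaled with TMM factors and tested with the quasi-likelihood test of edgeR 4.0.16 (R 4.3.3), two-sided, with group as the only term and Benjamini-Hochberg adjustment over 12795 genes. The standard error (SE) of a fold change follows from the F value of the test. An exact permutation test of 3 against 3 mice cannot give a p below 0.10 and was not used. The procedure was tested on simulated data. Promoter sequences came from RefSeq.

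Members and lists were chosen with earlier results of these data known. Values per library were given for the 2 called genes with the smallest p in each direction of a subunit group, the catalytic pairs, Psme1 to Psme4, Psmd4, Psmd14 and the uncalled gene with the largest change of each group. For the pathway lists, at most 3 called genes by smallest p and Nfe2l1 were given. Psma5, Psmb3, Psmd1, Psmd2, Psmd8, Pomp, Nfe2l2 and Ubb were added after their values were seen. Some genes that the rule selects are not reported here.

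Alternatives were RLE, upper-quartile and library-size scaling, DESeq2 1.42.0, limma-voom (limma 3.58.1), other filters, an adjusted p under 0.01, leaving out each library, removing library trends in length and GC content by splines (5 degrees of freedom each), dropping mitochondrial genes, and exon-union length. Adding the counts of near-identical copies (at least 95% identity over at least 200 bases) was chosen after seeing the data. It concerned 10 members, and 15 members share exon bases with another annotated gene.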

Additional observations from a re-analysis of the deposited data

How the results depend on the processing

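The 8 higher and 12 lower proteasome genes became 13 and 1 with library size alone (all genes 3162 and 674), 2 and 5 at an adjusted p under 0.01 (443 and 573), and 10 and 3 with the length and GC trend removed. At an adjusted p under 0.01, 5 of the 13 called pathway genes passed. Without single libraries the higher proteasome genes were 2 to 8, the lower ones 4 to 11, all genes higher 460 to 1773 and lower 564 to 2008, and the pathway genes 5 to 16. With library size alone the medians were 0.25 (all proteasome genes), 0.60 (core alpha), 0.06 (constitutive beta), -0.44 (immunoproteasome), 0.19 (ATPase), 0.89 (non-ATPase), 0.05 (activators) and -0.07 (chaperones). With the trend removed they were -0.05 (constitutive beta), 0.01 (ATPase) and -0.13 (chaperones), and with near-identical copies added, the activators were at -0.16. Without single libraries the medians ranged from 0.01 to 0.23 (core alpha), -1.00 to -0.52 (immunoproteasome), -0.28 to -0.16 (ATPase), 0.39 to 0.65 (non-ATPase) and -0.60 to -0.43 (chaperones). Exon-union length put the median level per kilobase at 22.3 in HFD and 22.1 with allantoin, in place of 34.2 and 37.1, so that the order of the groups turned. With copies added, Psme2b was counted with Psme2 and not fitted on its own. For single genes, RLE factors, a CPM filter and dropping mitochondrial genes changed no call among the 48, DESeq2 added 6 and lost none, limma-voom added 3 and lost none, and no filter added 2 and lost 4. Apart from the fewer samples or stricter threshold of some alternatives, the cause was not tested. The 20 called genes kept their direction under all alternatives in which they were fitted. No paired analysis was possible because the groups share no replicate number. With 3 mice a group, 15 of the 20 calls were lost without at least 1 library.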

Other observations

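Markers of other liver cells were followed as lists beside the proteasome genes. Of all genes tested, 11.3% were called higher and 13.0% lower. Stellate cell markers had a summed level of 200 to 336 CPM in HFD and 452 to 525 CPM with allantoin, and 6 of 8 were called higher, among them Dcn, a collagen-binding proteoglycan, with a log2 fold change of 1.03 (adjusted p = 0.00785). Of 10 macrophage markers, 3 were called higher, and the median log2 fold change was 0.97. In 8 the log2 fold change was positive, and in 2, Cd68 (-0.01) and Timd4 (-0.10), it was negative. The largest was that of Adgre1, the classical mouse macrophage surface marker (2.71, adjusted p = 0.00106). Adgre1 was at 2.62, 3.75 and 3.01 CPM in HFD and at 18.4, 23.1 and 20.2 CPM with allantoin. Hepatocyte markers had 1 gene called higher, the urea cycle enzyme Cps1 (1.05, adjusted p = 0.0385), and 3 called lower, the plasma protein genes Apoa1, Apoa2 and Ttr.

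Sinusoidal endothelial markers were at 83.0 to 165 CPM in HFD and at 142 to 223 CPM with allantoin, with none of 8 called. All 8 had a positive log2 fold change, and 4 were called higher with library size alone, where 24.7% of all genes were. Cholangiocyte markers were at 34.5 to 159 CPM and 21.9 to 76.8 CPM, with 1 of 3 called lower, where 13.0% of all genes tested were. Adipocyte markers summed to 3223 to 4255 CPM and 2522 to 3860 CPM, nearly all of it Car3 (2932 to 4140 CPM and 2473 to 3725 CPM), while Adipoq, Plin1, Retn and Lep were at 11.4 to 51.4 CPM in HFD replicate 2 and at or near 0 in the other libraries. The erythroid markers were at 332 to 1336 CPM and 878 to 1054 CPM, with none called in the adipocyte or erythroid list by edgeR's quasi-likelihood test. The part of these cells in the proteasome values was not tested.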
